A study of Mus musculus with 11 samples.

Results

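The miR-200 family consists of 5 microRNA (miRNA) genes in the mouse, Mir200a, Mir200b, Mir200c, Mir141 and Mir429. These 5 were taken by name from a table of 3859 small RNA genes, 1886 of them annotated as miRNA, and each name matched 1 row. The libraries follow mouse embryonic fibroblasts (MEF) as they are reprogrammed towards pluripotency. All 11 libraries are labelled Mbd3f/-, a genotype in which 1 allele of Mbd3 is floxed and the other deleted (Mbd3 belongs to the NuRD chromatin complex), and the MEF carried a doxycycline-inducible cassette of the factors Oct4, Klf4, Sox2 and Myc. There was 1 library each of uninduced MEF, of days 1 to 8 after doxycycline, of an established induced pluripotent stem cell (iPSC) line and of an embryonic stem cell (ESC) line whose column is named V6.5, so that the ESC genotype is unclear. Cells of day 3 onwards and both lines were on irradiated human foreskin fibroblasts, per the labels, and the medium also changed during the course.

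miRNAs of this family hold epithelial identity by repressing Zeb1 and Zeb2, transcription factors that shut off E-cadherin, and Zeb proteins in turn repress the genes of the family. Fibroblasts must pass through a mesenchymal-to-epithelial transition to become pluripotent cells, and the family is known to promote that step. The mRNAs of Zeb1, Zeb2 and E-cadherin were not part of the table.

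The 5 genes lie at 2 loci. On the minus strand of chromosome 4 (GRCm38), Mir200b (156055681 to 156055750), Mir200a (156054896 to 156054985) and Mir429 (156053905 to 156053987) lie within 1846 bases in the gene body of Ttll10, outside its annotated exons. Mir429 also overlaps an exon of the noncoding transcript Gm13648. On the minus strand of chromosome 6, Mir200c (124718322 to 124718390) and Mir141 (124717914 to 124717985) lie within 477 bases in an intron of the antisense transcript Gm15884, and Mir141 also overlaps an exon of Gm29008. The nearest coding gene to both is Phb2, 964 bases from Mir141.

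The mature 3p miRNAs fall into 2 groups by their seed, bases 2 to 8, which is the part that pairs with targets. They are shown because the seed groups cut across the loci. Sequences are from RefSeq (GRCm38.p6), 5′ to 3′, with the seed in capitals.
miR-200b-3p (chromosome 4): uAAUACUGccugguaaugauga
miR-429-3p (chromosome 4): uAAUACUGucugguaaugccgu
miR-200c-3p (chromosome 6): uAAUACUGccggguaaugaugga
miR-200a-3p (chromosome 4): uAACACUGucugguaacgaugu
miR-141-3p (chromosome 6): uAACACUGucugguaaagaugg
Counted from the 5′ end, the seeds of the groups differ by U4C, with miR-200b-3p as the reference. Of 1738 mature mouse miRNAs in the RefSeq table, the seed of miR-200b-3p occurred in 3 and that of miR-200a-3p in 2, all of them from this family. Across loci, miR-200b-3p and miR-200c-3p differed at 2 of 22 positions (U11G and A22G), and miR-200a-3p and miR-141-3p at 2 (C17A and U22G). miR-429-3p differed from miR-200c-3p and from miR-141-3p at 5 positions each. Each locus therefore carries both seeds, and 2 pairs across the loci are near copies of each other.

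The table counts each gene as a whole, so the arms are not separated. The hairpins of the chromosome 6 pair are shown because the levels of these neighbours lay far apart, with the 3p arm in capitals.
Mir200c hairpin: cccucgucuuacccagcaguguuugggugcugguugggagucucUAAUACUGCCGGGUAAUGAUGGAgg
Mir141 hairpin: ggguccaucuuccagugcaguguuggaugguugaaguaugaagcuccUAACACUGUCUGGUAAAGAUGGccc
They are 69 and 72 bases long.

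Values are FPKM, fragments per kilobase per 1000000 mapped fragments. In each library 89.1% to 95.6% of the low values were whole multiples of a step, within 0.05 read, from which a depth of 11560000 mapped reads in MEF to 21840000 on day 7 was recovered. At 72 bases, 1 read was worth 66.9 FPKM in MEF and 35.4 on day 7. The table took 44.8% to 59.2% of the mapped reads in 9 libraries, but 22.6% on day 7 and 27.6% on day 8. Counting intervals below are exact Poisson 95% intervals of the recovered reads and cover counting error only. The label check by marker lists was as follows. All 12 tested members of the pluripotent list (miR-290 and miR-302 clusters) rose over the course, with a median slope of 1.16. All 5 tested muscle miRNAs and 2 of 6 blood cell miRNAs fell, the endothelial Mir126 was not called, and neither was any of 8 neural miRNAs. Among all tested transcripts 12.5% rose and 10.6% fell, and among miRNA genes 10.9% rose and 16.5% fell. The summed level of the pluripotent list went from 21450 FPKM in MEF to 46910000 on day 8. Most of both sums was Mir295, at 15864.7 FPKM in MEF and 31201600 on day 8, which was listed at 0 in both lines.

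The family as a whole grew in number and changed in make-up. Its recovered reads were 149 per 1000000 miRNA reads in MEF, 58.1 on day 1, 93.7 on day 2, 127 on day 3, 283 on day 4, 432 on day 5, 1028 on day 6, 1795 on day 7 and 3066 on day 8. They were 4555 in iPSC and 8458 in ESC. The day 1 library was the lowest of all, and both lines were higher than any day of the course. Behind these values stood 831 reads in MEF, 402 on day 1, 15671 on day 8 and 69803 in ESC.

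**Figure D1:**
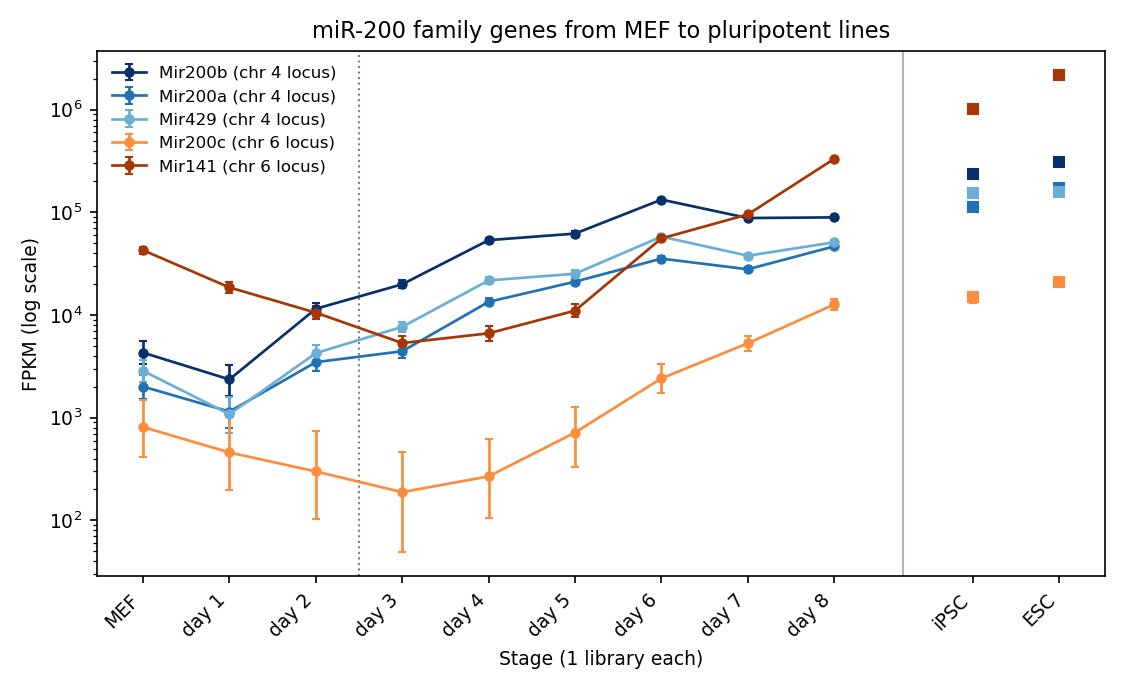
FPKM of the 5 genes (log axis) in 1 library per stage; error bars are Poisson 95% counting intervals, the dotted line marks the first stage on human feeders, and squares right of the grey line are the established lines. The 3 genes of chromosome 4 (blue) climb from day 2, while Mir141 and Mir200c (orange) sink to their lowest value on day 3 and climb later.

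The chromosome 4 genes climbed early and together. Mir200b, the highest of the 3 in FPKM in each library, was at 4304 FPKM in MEF, 2359.65 on day 1, 11508 on day 2, 19939.5 on day 3, 53659.8 on day 4, 62116 on day 5, 133106 on day 6, 88069.5 on day 7 and 89379.5 on day 8, with 234137 in iPSC and 311745 in ESC. Day 1 was the only stage of the course below MEF, and each day from day 4 lay above all earlier stages up to day 3. Mir200a, which carries the other seed, was at 2011 FPKM in MEF, 1147 on day 1, 3476 on day 2, 4440.3 on day 3, 13443 on day 4, 21129 on day 5, 35445 on day 6, 27905 on day 7 and 46688 on day 8, with 111697 in iPSC and 172047 in ESC. Mir429, whose mature form shares the seed of miR-200b, was at 2863 FPKM in MEF, 1080.54 on day 1, 4256 on day 2, 7675 on day 3, 21739 on day 4, 25261 on day 5, 58060.5 on day 6, 37825 on day 7 and 51159.5 on day 8, with 155351 in iPSC and 157745 in ESC. All 3 had their lowest value on day 1, where they rested on 35, 35 and 26 reads. The order of the 3 depended on gene length, since 1 read in MEF was worth 72.3 FPKM for Mir200b, 35.3 for Mir200a and 44.7 for Mir429. By recovered reads Mir200b was the highest on days 2 to 7, but not in MEF (60, Mir429 64) or on day 8 (2191, Mir200a 2343). It was also not the highest in iPSC (4148, Mir429 4449) or ESC (6611, Mir200a 7470).

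In the step from day 1 to day 2, before feeders, Mir200b was 4.88-fold higher, Mir429 3.94-fold and Mir200a 3.03-fold. From day 3 to day 4 the folds were 2.69, 2.83 and 3.03. The fall of these genes from day 6 to day 7, 1.51-fold for Mir200b and 1.54-fold for Mir429, came with a drop of the table's share of mapped reads from 44.8% to 22.6%. Per 1000000 miRNA reads, Mir200b went from 378 on day 6 to 502 on day 7 and 429 on day 8.

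The chromosome 6 genes first sank and then climbed. Mir141, which shares its seed with miR-200a, was at 42811 FPKM in MEF, 18575 on day 1, 10544 on day 2, 5338 on day 3, 6636 on day 4, 11039 on day 5, 55781 on day 6, 95445 on day 7 and 332571 on day 8, with 1021060 in iPSC and 2176040 in ESC. MEF was thus above each of days 1 to 5, and days 6 to 8 were above MEF. Between MEF and day 3 Mir141 was 8.02-fold lower (counting interval 6.65 to 9.75), on 640 and 134 reads. From day 5 to day 6 it was 5.05-fold higher, its largest step between neighbouring stages.

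Mir200c, the counterpart of Mir200b, followed the same path at a low level. It was at 811 FPKM in MEF, 459 on day 1, 299.7 on day 2, 189 on day 3, 268 on day 4, 717 on day 5, 2419 on day 6, 5308 on day 7 and 12686 on day 8, with 14875 in iPSC and 20808 in ESC. Up to day 5 these values rested on 4 to 11 reads. The day 3 value had a counting interval of 48.8 to 458 FPKM and that of MEF 413 to 1481, and the intervals of the neighbouring early stages overlapped. MEF over day 3 was 4.31-fold (1.37 to 19.9). From day 6 to day 8 each stage lay above all earlier ones beyond its counting interval.

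Mir141 and Mir200c lie 477 bases from end to end, yet Mir141 was 15.4-fold to 52.8-fold higher in FPKM along the course, 68.6-fold in iPSC and 105-fold in ESC. Within the chromosome 4 locus the corresponding gap was smaller: Mir200b was 1.81-fold to 4.49-fold above Mir200a in FPKM. On day 8 and in ESC, however, Mir200a had more recovered reads than Mir200b. The recovered reads of Mir200c were not whole in the early libraries (10.8 in MEF and 4.21 on day 3). How reads that match several genes were shared is not given in the sources used here.

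Levels set in order show where the family changed hands. In MEF and on day 1 Mir141 was the highest (42811 and 18575 FPKM, with Mir200b next at 4304 and 2359.65), and Mir200c the lowest. On day 2 Mir200b and Mir141 stood at 11508 and 10544 FPKM, with overlapping counting intervals. From day 3 to day 6 Mir200b led, and on days 7 and 8 and in both lines Mir141 did. Mir200c was the lowest in all 11 libraries. On day 1, the levels of Mir200a and Mir429 had overlapping intervals.

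**Figure D2:**
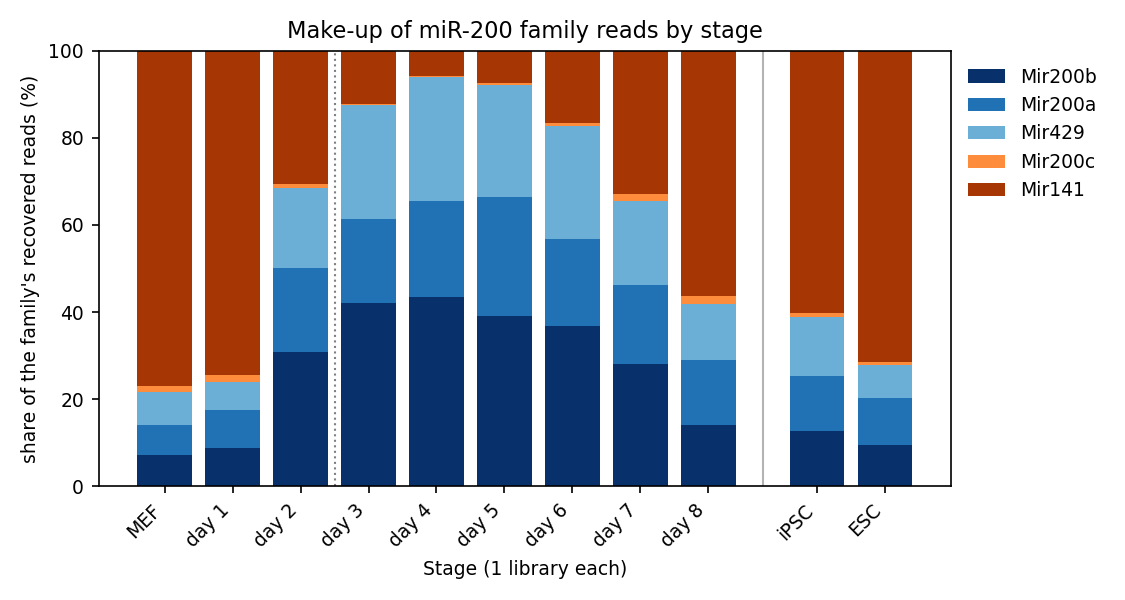
Share of each gene (%) in the family's recovered reads, 1 bar per library and stage. The chromosome 4 genes (blue) make up 21.7% in MEF, 94.0% on day 4 and 27.9% in ESC.

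As a share of the family's reads, the chromosome 4 genes took 21.7% in MEF, 23.9% on day 1, 68.6% on day 2, 87.4% on day 3, 94.0% on day 4, 92.0% on day 5, 82.7% on day 6, 65.6% on day 7 and 41.9% on day 8. In iPSC they took 39.0% and in ESC 27.9%. The seed of miR-200a and miR-141 followed the opposite course, at 83.8% in MEF, 28.0% on day 4, 71.2% on day 8 and 82.2% in ESC. MEF and ESC thus had a like make-up, at family totals of 149 and 8458 per 1000000 miRNA reads.

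The slope over MEF (as day 0) and days 1 to 8 was fitted with limma on log2(FPKM + 10) over 1419 transcripts, with a call at an adjusted p (Benjamini-Hochberg) under 0.05. Of the 5 family genes 4 rose, where 12.5% of all transcripts and 10.9% of miRNA genes rose, and 10.6% and 16.5% fell. With 1 library a stage, the p measures scatter around the trend and not between cultures, and in bulk RNA more cells with a miRNA and more of it per cell cannot be told apart. In log2 units per day, Mir200b had a slope of 0.70 ± 0.11 (SE; limma adjusted p = 0.00324), Mir429 0.69 ± 0.11 (adjusted p = 0.00259) and Mir200a 0.68 ± 0.09 (adjusted p = 0.00125). They ranked 48th, 49th and 50th of 1419 from the steepest rise, next to each other. The slope of Mir200c was 0.57 ± 0.17 (adjusted p = 0.0392), and its call was lost without the library of day 1, 2, 3, 6, 7 or 8 (adjusted p from 0.052 to 0.194). Without both days 7 and 8 its slope was 0.21 (adjusted p = 0.568). That of Mir141 was 0.41 ± 0.20 (adjusted p = 0.172), and -0.04 without days 7 and 8.

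The bend in the course of the chromosome 6 genes is left out of a straight line. With day squared added to the fit, the joint F-test called all 5 genes, where 32.6% of all transcripts and 41.6% of miRNA genes were called. The coefficient of day squared was 0.25 for Mir141 and 0.21 for Mir200c, an upward bend, and the joint test gave limma adjusted p = 0.00095 and 0.00075. It was -0.09 for Mir200b, -0.05 for Mir429 and -0.03 for Mir200a, with joint adjusted p = 0.00201, 0.00371 and 0.00182. The coefficients were not tested on their own. A joint call with a positive coefficient was made in 9.87% of all transcripts and 9.97% of miRNA genes. Over days 3 to 8 alone, the stages on feeders, Mir200c rose by 1.27 per day (adjusted p = 0.0148), Mir141 by 1.25 (0.0203) and Mir200a by 0.60 (0.0494). In these 6 libraries Mir200b and Mir429 had slopes of 0.40 (0.131) and 0.49 (0.0815).

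**Figure D3:**
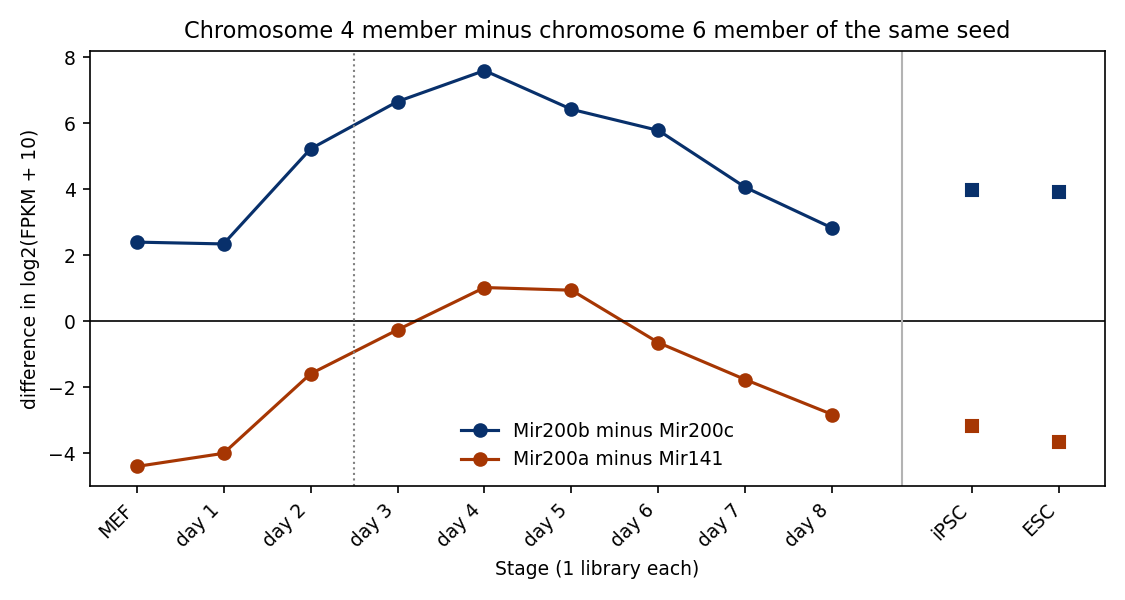
Difference in log2(FPKM + 10) between the chromosome 4 and the chromosome 6 gene of the same seed, 1 point per library. Both lines rise to a peak on day 4, at 7.59 and 1.02, and come down by day 8 to 2.82 and -2.83. Mir200c had 6 recovered reads on day 4.

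Whether the loci moved apart was tested on the same-seed pairs. Mir200b was 5.30-fold above Mir200c in MEF, 200-fold on day 4 and 7.05-fold on day 8. The first 2 of these folds are imprecise, since Mir200c had 11 recovered reads in MEF and 6 on day 4. Its counting interval on day 4 was 105 to 623 FPKM. In FPKM, Mir141 was 21.3-fold above Mir200a in MEF, Mir200a was 2.03-fold above Mir141 on day 4, and Mir141 was 7.12-fold higher again on day 8. These folds depend on gene length, since 1 read in MEF was worth 66.9 FPKM for Mir141 and 35.3 for Mir200a. By recovered reads, MEF had 640 of Mir141 and 57 of Mir200a, day 4 had 156 and 600, and day 8 had 8812 and 2343. On day 3, Mir141 was higher in FPKM (5338 and 4440) but lower in reads (134 and 211). The log2 difference had a linear slope of 0.13 per day for Mir200b over Mir200c (exact permutation test over 9 libraries, two-sided, p = 0.637, adjusted over the 2 pairs p = 0.637) and 0.27 for Mir200a over Mir141 (p = 0.317, adjusted p = 0.633). Over the whole course no linear drift was detectable. Over days 3 to 8 the slopes were -0.87 (exact permutation p = 0.0111, adjusted p = 0.0222) and -0.65 (p = 0.0583, adjusted p = 0.0583), so the call was made for the first pair only. With day and day squared together, a test chosen after the shape had been seen, both pairs gave an adjusted p of 0.000799 by exact permutation.

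Across the 9 libraries of the course, genes of 1 locus moved alike. Pearson's r of log2(FPKM + 10) was 0.99 between Mir200b and Mir429, 0.98 between Mir200b and Mir200a, and 0.96 between Mir200c and Mir141. Across loci it was 0.54 for the pair Mir200b and Mir200c and 0.50 for Mir200a and Mir141, which share a seed but not a locus. Mir429 and Mir200c, which also share a seed, had 0.62. Among all pairs across loci r ran from 0.34 (Mir200b and Mir141) to 0.69 (Mir200a and Mir200c). These values describe points from the same 9 libraries, with their shared depth.

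Against the end points, the 2 loci were at different places on any given day. On the log2 scale, taking MEF as 0% and the mean of the lines as 100%, Mir200b stood at 37.0% on day 3, 82.9% on day 6 and 73.3% on day 8. Mir429 stood at 24.6%, 75.2% and 72.0%, and Mir200a at 18.7%, 67.8% and 74.3%. Mir141 was at -58.6% on day 3, 7.45% on day 6 and 57.7% on day 8. Mir200c was at -46.3%, 35.4% and 89.3%. On day 3, the libraries thus stood on opposite sides of MEF for the 2 loci, but with values centred on the median miRNA Mir200a was at 0.88 of its MEF level on day 3, and at 1.00 after quantile normalization. The median tested miRNA was itself 1.32 higher on day 3 than in MEF in log2(FPKM + 10). Mir200b was 4.63-fold above MEF on day 3 and the only family gene at least 4-fold higher there, which 29.1% of tested transcripts were. Centred on the median miRNA, its fold was 1.85.

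All 5 genes were at least 4-fold higher in both lines than in MEF, a difference found in 29.7% of tested transcripts and 26.5% of miRNA genes. Without replicates this is not tested, and after quantile normalization Mir200c was 3.73-fold above MEF in iPSC, short of 4-fold. In iPSC, Mir200a was 55.5-fold above MEF (counting interval 42.7 to 73.4), Mir200b 54.4-fold, Mir429 54.2-fold, Mir141 23.9-fold (22.0 to 25.8) and Mir200c 18.3-fold (9.86 to 36.4). In ESC the folds were 85.5, 72.4, 55.1, 50.8 and 25.6. On day 8 all 5 genes were again at least 4-fold above MEF, as were 37.7% of tested transcripts. Mir200a was 23.2-fold above MEF, Mir200b 20.8-fold, Mir429 17.9-fold, Mir200c 15.6-fold and Mir141 7.77-fold. From day 8 to iPSC the FPKM of Mir200c was 1.17-fold higher and that of Mir141 3.07-fold. For Mir200c, Mir200b, Mir200a and Mir429 the direction depended on the scale, while Mir141 was not lower in iPSC on any scale used. The fold of Mir141 over MEF, centred on the median miRNA, was 7.32 on day 8 and 7.34 in iPSC. Per 1000000 miRNA reads, Mir200c was at 58.5 on day 8 and 35.5 in iPSC, and Mir141 at 1724 and 2745. Centred on the median miRNA, the fold over MEF went from 14.6 to 5.58 for Mir200c, from 19.5 to 16.7 for Mir200b and from 21.8 to 17.0 for Mir200a. For Mir429 it was nearly level, at 16.78 on day 8 and 16.65 in iPSC. Between the lines, Mir141 was 2.13-fold higher in ESC than in iPSC and Mir429 1.02-fold. The folds of the lines over MEF were smaller on other scales. Centred on the median miRNA, they were 7.34 in iPSC and 25.5 in ESC for Mir141, and after quantile normalization they were 25.2 for Mir200b and 5.55 for Mir200c in ESC.

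**Figure D4:**
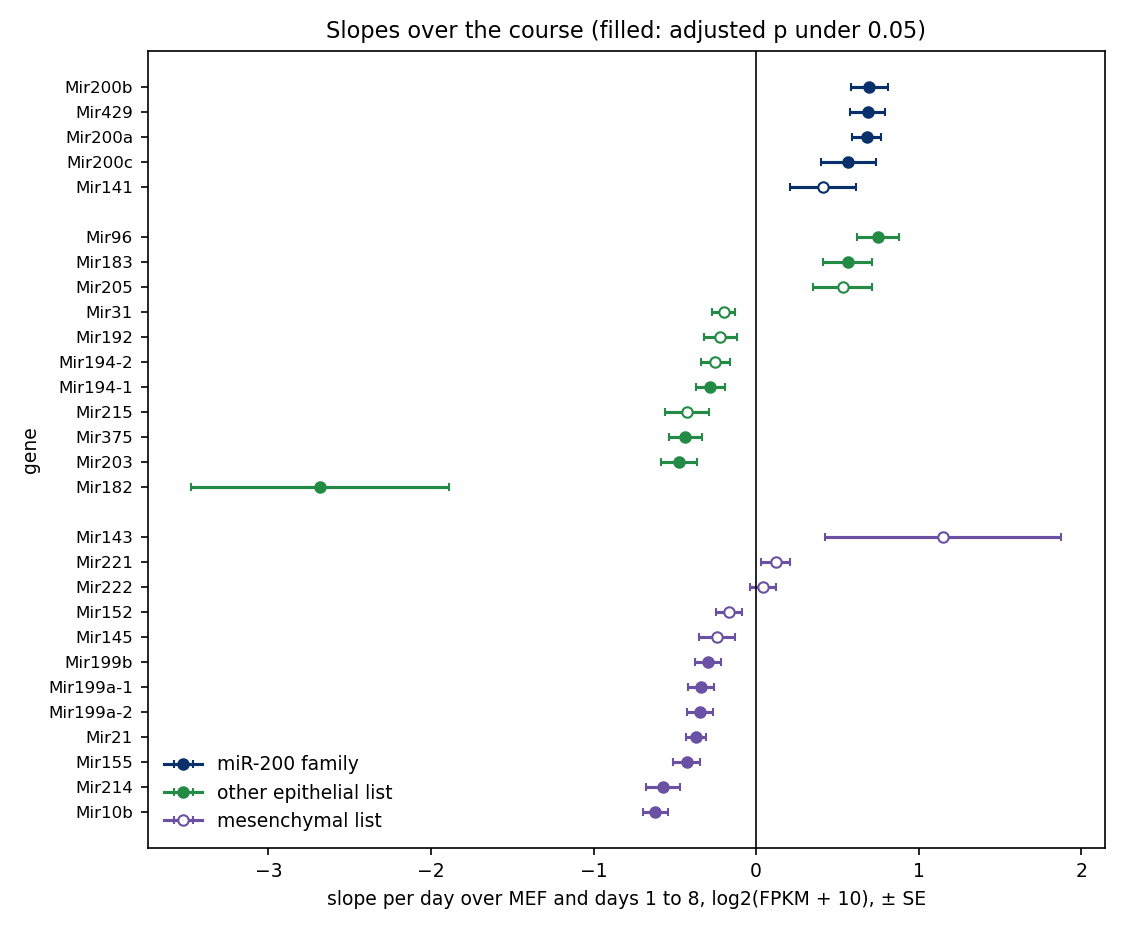
Slope per day over MEF and days 1 to 8 in log2(FPKM + 10), with its SE, for the family and for the epithelial and mesenchymal lists; filled points passed the limma test. The 5 family slopes lie between 0.41 and 0.70, and the outlying values of Mir182 and Mir143 come with values listed at 0.

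Other miRNAs linked to epithelial cells did not move as 1 group. Of 11 tested, 2 rose and 4 fell, where 12.5% of all transcripts and 10.9% of miRNA genes rose, and 10.6% and 16.5% fell. The median slope of the list was -0.25, where all tested transcripts had 0.02. The rising ones were Mir96, with a slope of 0.75 (limma adjusted p = 0.00412), and Mir183 (0.56, 0.0253), its neighbour in the same cluster. Mir203, which drives keratinocyte differentiation, and Mir375, an islet and gut endocrine miRNA, fell with slopes of -0.47 (adjusted p = 0.018) and -0.43 (0.0158). Mir194-1 fell with -0.28 (0.0494). The fall of Mir182, a neighbour of Mir183, rests on values listed at 0 from day 6 on. Mir205, a miRNA of stratified epithelium, had a slope of 0.53 (0.0596), and Mir31, Mir192, Mir194-2 and Mir215 had slopes from -0.20 to -0.42. The rising count was 1 without MEF, day 1 or day 6, and the falling count was 1 without day 1 and 2 without day 2, 3, 6, 7 or 8.

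In FPKM, 2 of the 11 epithelial miRNAs were lower on day 3 than in MEF, as Mir141 was, and 9 were not. This count depends on the scale, since the median tested miRNA was itself 1.32 log2 units higher on day 3 than in MEF. The share of all transcripts that were lower on day 3 by any amount was not counted. Mir203 was at 19589 FPKM in MEF, 15467 on day 1, 4013 on day 2 and 1915 on day 3. Mir375 was at 17587 in MEF, 20782 on day 1, 8638 on day 2 and 2521 on day 3. Mir205 went from 19429 in MEF and 12933 on day 1 to 288255 on day 2. Between MEF and day 3, Mir96 went from 1807 to 23964 FPKM, Mir183 from 640015 to 7241120, Mir182 from 1669730 to 8444330, Mir192 from 431849 to 756331 and Mir194-2 from 4518 to 8022. Mir31, Mir194-1 and Mir215 were close to their MEF values on day 3. Relative to the median miRNA, Mir31, Mir194-1, Mir215, Mir192 and Mir194-2 were thus lower on day 3 than in MEF. Over the same stages the summed level of the muscle list went from 176900 FPKM to 37100, 9304 and 2527, and that of the blood cell list from 272800 to 170800, 157200 and 106500. Within the blood cell list, Mir150 went from 2493 FPKM in MEF to 77112 on day 3, while Mir142 went from 232146 to 27448, Mir223 from 24400.0 to 1400.1 and Mir511 from 12072.5 to 521. In MEF no tested member of the epithelial, muscle or blood cell lists was listed at 0. Mir141 and Mir200c were at least 4-fold lower on day 3 than in MEF, a fall found in 8.39% of tested transcripts, and the part of other cell types in the MEF level of Mir141 was not tested.

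Of 12 tested miRNAs linked to fibroblasts and mesenchymal cells, 7 fell and 5 were not called, where 10.6% of all transcripts and 16.5% of miRNA genes fell. The median slope of the list was -0.32. Mir10b, known from invasive cells, had a slope of -0.62 (limma adjusted p = 0.000778), Mir214 -0.57 (0.00535), Mir155 -0.43 (0.00657) and Mir21, the abundant fibroblast miRNA, -0.37 (0.00396). Slopes were -0.34, -0.34 and -0.29 for the Mir199 genes (Mir199a-1, Mir199a-2, Mir199b), whose reads can be split among copies. The 5 without a call had slopes of -0.24 (Mir145), -0.17 (Mir152), 0.04 (Mir222), 0.12 (Mir221) and 1.15 (Mir143, which was listed at 0 in MEF). Mir22 had values near 0 in each library and was not tested. Without days 7 and 8, 3 of the 12 fell, and 3 did after quantile normalization. Human feeder fibroblasts were present from day 3, and their part in these levels was not tested.

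The 5 transcripts whose pattern over the 11 libraries was closest to the mean of the chromosome 4 genes were Mir96 (Pearson's r = 0.97), Mir669h (0.94), Mir465b-1 (0.94), Mir302a (0.93) and Mir211 (0.93). Mir96 had its course peak on day 6 at 180252 FPKM, as did Mir200b, and was at 77484 on day 7. Closest to the mean of Mir200c and Mir141 were Snord14a (0.92), Mir195 (0.91), Snord67 (0.90), Snord83b (0.89) and Mir741 (0.88). Mir195 was at 6632 FPKM in MEF, 1632 on day 2, 7546 on day 8 and 41263 in ESC. No gene was on both lists, as would be usual for unrelated lists of 5 out of 1416 transcripts. Among 1416 transcripts ranked by likeness to the chromosome 4 genes, Mir200c came 101st and Mir141 156th. Of 1417 ranked by likeness to the chromosome 6 genes, Mir200a came 31st, Mir429 50th and Mir200b 86th.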

How the data were processed

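Per the labels' protocols, gel-selected small RNA libraries came from a TruSeq kit. The authors deposited FPKM in 11 columns, 1 per library. CASAVA 1.8.2, Bowtie2 2, Cufflinks 2.2.1 and mm10 appear, without roles, in the submitters' processing notes. Neither the annotation nor the table's filter is stated there. Ensembl IDs were looked up in GENCODE vM21 (3712 found, 147 not).

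Depth was recovered from the steps of low values with an assumed fragment length of 200 ± 80 nt, taking the smallest depth within 10% of the best score. Whole numbers, to 0.05 read, made up 91.8% of the 4768 values from 0.5 to 5.5 reads (10% by chance). These values also set the depth. Read numbers rest on that model, so no count test was run. PCR reads are not independent molecules.

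Transcripts with a mean of at least 10 FPKM were tested with limma 3.58.1 (R 4.3.3) on log2(FPKM + 10), which understates changes of low transcripts. The fit had 7 residual and 2.53 prior degrees of freedom and was tested on simulated data. Ratios were tested by exact permutation (numpy 2.4.6), and counting intervals came from scipy 1.17.1. Named were the 5 family genes, the genes of the epithelial and mesenchymal lists and the 5 transcripts most correlated with each locus; marker lists were pluripotent, muscle, blood cell, endothelial and neural. Members and lists were chosen with earlier results of these data known.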

Additional observations from a re-analysis of the deposited data

How the results depend on the processing

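Each stage had 1 library, so the trend over 9 stages gives the tests, and early values of Mir200c are limited by 4 to 11 reads. No paired analysis was possible because each stage has 1 library. The rise of Mir200a kept its call in all 21 alternatives, and those of Mir200b and Mir429 in 20 of 21, with slopes over days 3 to 8 of 0.40 and 0.49. Mir200c had a slope of 0.57 with a pseudocount of 1 (adjusted p = 0.0534) and 0.57 without the filter (0.0787), 0.50 after quantile normalization (0.135), 0.63 centred on the median miRNA (0.0715) and 0.21 without days 7 and 8 (0.568). Leaving out 1 library gave 0.42 to 0.79. Mir141 was called by the F-test (slope 0.41) and over days 3 to 8 (1.25), and had a slope of -0.037 without days 7 and 8. The cause of these changes was not tested.

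Over all transcripts, 177 rose and 150 fell. Rising counts were 102 among miRNA genes alone (fewer tested), 66 over days 3 to 8 and 339 on the scale of recovered miRNA reads, an alternative chosen after seeing the data, and 93 to 175 without 1 library (93 without MEF, 110 without day 1 and 114 without day 6). Falling counts were 80 over days 3 to 8, 69 without days 7 and 8 and 97 to 170 without 1 library (97 without day 7 and 98 without day 8). The ratio of Mir200b to Mir200c had slopes of -0.87 over days 3 to 8, -0.075 without MEF and -0.012 without day 1 (0.40 at most without 1 library), and that of Mir200a to Mir141 -0.65 over days 3 to 8. With day and day squared, chosen after seeing the data, both were called (slopes 0.13 and 0.27).

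The median tested miRNA lay above MEF by 1.02 to 1.35 in log2 units on days 1 to 6, by -0.14 on day 7 and 0.09 on day 8, and by 1.70 in iPSC and 0.99 in ESC. After quantile normalization the folds over MEF on day 8 were 12.7 for Mir200b, 13.8 for Mir200a, 10.8 for Mir429 and 6.03 for Mir200c. In iPSC they were 19.8, 15.4, 16.8 and 3.73, with 12.9 for Mir141, and in ESC 25.2, 26.1, 17.5 and 5.55, with 26.0 for Mir141. Centred on the median miRNA, the iPSC folds were 16.7, 17.0, 16.7 (Mir429, 16.65), 5.58 and 7.34, and the ESC folds 36.3, 42.8, 27.6, 12.7 and 25.5. All stayed above 1, and that of Mir200c in iPSC after quantile normalization fell below 4.

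In the epithelial list, the rising count was 0 over days 3 to 8 and 1 to 3 without 1 library. Its falling count was 7 with a minimum of 1000 FPKM, 1 centred on the median miRNA, 1 over days 3 to 8, 2 without days 7 and 8, 1 on the scale of miRNA reads, and 1 to 6 without 1 library. In the mesenchymal list, 3 fell after quantile normalization and without days 7 and 8, and 4 centred on the median miRNA. On the scale of miRNA reads 4 fell and 1 rose.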
